A study of Mus musculus with 6 samples.

Results

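The lysosomal proteases cathepsin L, B, C, H, S, Z, D and A, their inhibitor cystatin C and the cathepsin L substrate dynamin 2 are encoded by Ctsl, Ctsb, Ctsc, Ctsh, Ctss, Ctsz, Ctsd, Ctsa, Cst3 and Dnm2. These 10 genes, of 18194 with a probe set annotated to a single gene, were chosen by their function, and every probe set that the annotation assigns to exactly one of them was taken, 27 of 45101 in all. Their mRNA was profiled in glomeruli of 3 mice without dendrin (genotype Dendrin KO) and of 3 littermate control mice (genotype wild type), all 13 months of age, with 1 array per mouse. The labels give the strain of all 6 mice as 129S6SvEv/C57BL6, and by the methods of the study the line had been backcrossed to C57BL/6. In the knockout line the whole coding sequence of dendrin was replaced in the germline by a cassette with eGFP and a neomycin resistance gene, so that the loss was not limited to podocytes, which are the glomerular cells that express dendrin. Dendrin was the check of the labels. Its gene Ddn stood at 3.80 to 3.81 in the knockout and at 12.22 to 12.81 in the control mice (log2 value). Values are log2 intensities processed with GCRMA, a method that subtracts background and brings the arrays to one distribution, and differences are knockout minus control on this scale.

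Cathepsins are proteases that work mainly in the acidic lumen of the lysosome, where they degrade proteins delivered by endocytosis and autophagy. Most of them, cathepsin L included, use a cysteine for catalysis, whereas cathepsin D is an aspartic protease and cathepsin A a serine carboxypeptidase. Cystatin C is a secreted inhibitor that binds cysteine cathepsins, and dynamin 2 is a GTPase that pinches vesicles off the plasma membrane. Dynamin and synaptopodin, a protein of the podocyte actin cytoskeleton, are known substrates of cathepsin L. The cathepsin L gene is in turn a described target of dendrin, which can move to the nucleus of injured podocytes. In the nucleus it is described to promote cathepsin L expression. No injury model is described for the mice profiled here. The arrays therefore address whether the mRNA of cathepsin L and of its inhibitor and substrates differs in such glomeruli without dendrin. Regulation in injured podocytes was not tested.

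The promoters of 3 members are shown because the results turn on these genes: Ctsl as the described target of dendrin, and Ctsc and Ctss as the members that varied most between mice. Each runs 5′ to 3′ on the strand of its gene, from 250 bases before the listed start of a transcript to 50 bases from that start on, and was taken from RefSeq (GRCm38.p6) at chr13:64370471-64370770 (minus strand) for Ctsl, chr7:88277835-88278134 (plus strand) for Ctsc and chr3:95526536-95526835 (plus strand) for Ctss. Capitals mark the letters CACGTG, a palindrome found in binding sites of the lysosomal regulator TFEB and of many other factors, and GAGGAA or its complement TTCCTC, found in sites of the myeloid factor PU.1.
Ctsl: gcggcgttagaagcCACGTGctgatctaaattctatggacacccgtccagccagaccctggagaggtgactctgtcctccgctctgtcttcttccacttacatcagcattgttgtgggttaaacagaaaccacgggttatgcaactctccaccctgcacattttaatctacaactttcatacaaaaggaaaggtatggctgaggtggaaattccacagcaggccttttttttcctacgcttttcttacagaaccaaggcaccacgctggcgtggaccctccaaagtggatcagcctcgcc
Ctsc: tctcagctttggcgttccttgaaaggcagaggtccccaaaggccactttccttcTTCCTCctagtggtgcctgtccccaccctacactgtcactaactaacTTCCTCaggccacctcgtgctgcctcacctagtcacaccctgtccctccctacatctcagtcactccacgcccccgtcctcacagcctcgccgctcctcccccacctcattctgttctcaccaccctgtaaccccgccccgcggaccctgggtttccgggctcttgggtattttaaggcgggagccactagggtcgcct
Ctss: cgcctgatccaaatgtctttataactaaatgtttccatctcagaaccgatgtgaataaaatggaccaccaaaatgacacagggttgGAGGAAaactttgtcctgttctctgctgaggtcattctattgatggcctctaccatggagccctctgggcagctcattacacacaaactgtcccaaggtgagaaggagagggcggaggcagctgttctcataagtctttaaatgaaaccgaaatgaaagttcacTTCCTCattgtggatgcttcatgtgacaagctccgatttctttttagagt
The start used for Ctss is the outermost start of the annotated gene, whereas that for Ctsc lies 61 bases and that for Ctsl 252 bases inside the gene. The whole Ctsl window is therefore within the annotated gene. The motifs were searched on both strands, do not overlap each other in these windows and were picked with the expression values known. CACGTG was present 1 time in the Ctsl window, with its first base at position -236 from the transcript start, and in neither of the other two. GAGGAA was present 2 times in the Ctsc window and 2 times in that of Ctss, and was not found in that of Ctsl. Of 32851 promoters in the table, 7.15% hold CACGTG and 28.3% hold GAGGAA. Among the 9 promoters listed for 8 of the member genes, 3 hold CACGTG (Ctsl, Ctsd and, of the 2 windows of Ctsa, the one 901 bases inside the gene) and 4 hold GAGGAA (Ctsc, Ctss, Cst3 and Dnm2). These matches describe letters in a window, and binding was not measured.

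Control 2 stood apart from the other 5 mice, with the highest level of tubule markers and the lowest of leukocyte markers, and results that rest on it are given with and without this mouse.

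No member passed the criterion of the study, a fold over 1.5 in either direction with an unadjusted p under 0.05. The count was 0 of 27 probe sets with limma, against 0.18% of all probe sets on the array. At an unadjusted p under 0.05, limma counted 2 of the 27, both of Ctsh, against 3.63% of all probe sets, and SAM, the permutation test named in the methods of the study, also counted 2, against 5.18%. No member had an adjusted p under 0.05 (Benjamini-Hochberg over all probe sets, limma), and the adjusted p was 1 for each of the 27. Over the whole array 0.00222% of probe sets, that of Ddn alone, passed it. In 4 of the 27 probe sets (1 each of Ctsb, Ctsc, Ctsa and Dnm2) the mean over the 6 arrays was under log2 4, a level without clear signal, and these are called dim. The other 23 represent all 10 genes, 19 of them with a higher and 4 with a lower mean in knockout glomeruli, and the groups did not overlap for 2 (8.70%), against 13.7% of all probe sets that are not dim. Without control 2, 8 of the 23 were higher and 15 lower. Over all probe sets that are not dim, 54.9% were higher in knockout glomeruli with and without this mouse. On the array 56.5% of probe sets are dim, so the share of 3.63% includes many without clear signal. When only the 19619 that are not dim were fitted, 1581 had an unadjusted p under 0.05 (limma), and so did 2 of the 23 member probe sets. The smallest two-sided p that an exact permutation test can give for 1 probe set in this design is 0.1.

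**Figure D1:**
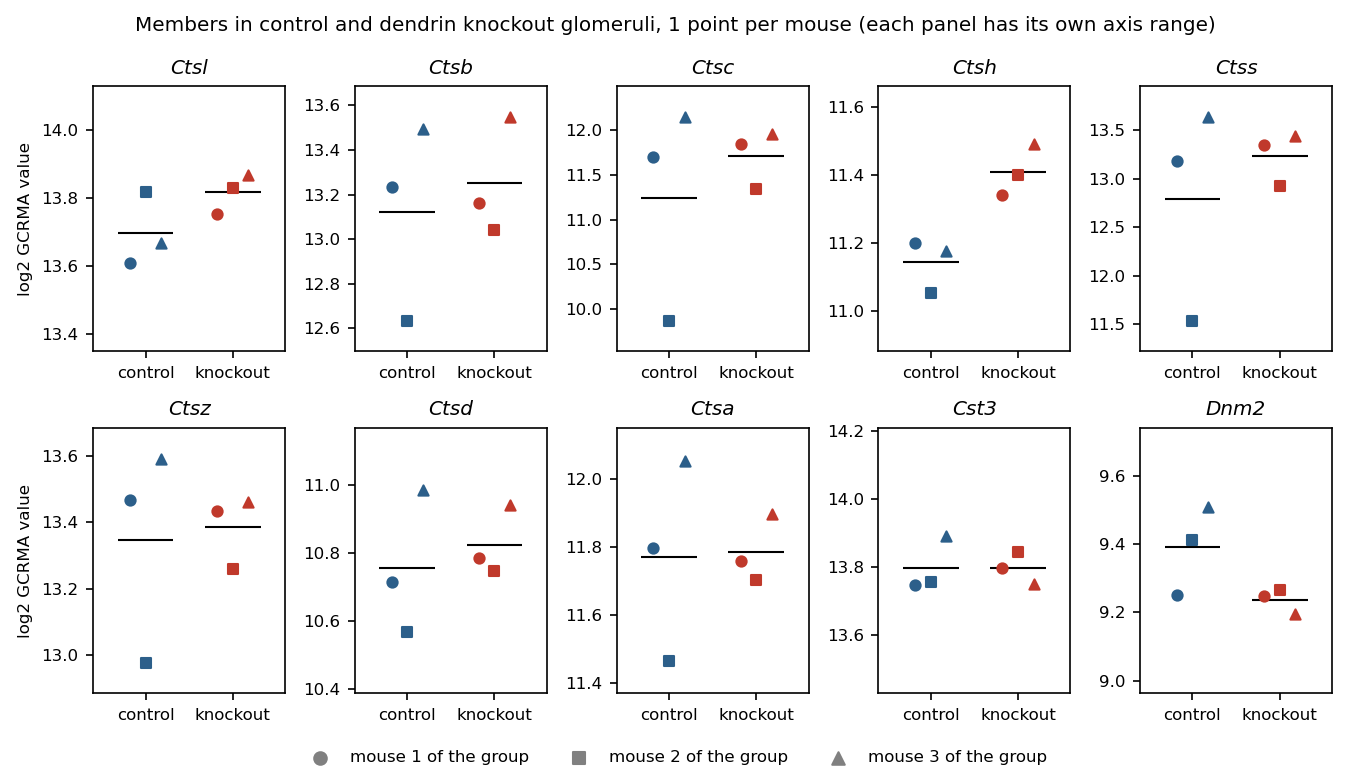
Log2 GCRMA value (vertical axis, with its own range in each panel) of the 10 member genes in the 3 control (blue) and 3 knockout (red) mice, 1 point per mouse, with a bar at each group mean. Each gene is drawn from its brightest probe set. Ctsh is the single panel in which the groups do not overlap, and control 2 (blue square) lies lowest in 7 of the 10 panels.

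Cathepsin L mRNA did not differ between glomeruli with and without dendrin beyond the spread between mice. The Ctsl gene lies on chromosome 13 (64361890 to 64370772, GRCm38.p6) and is represented by 2 probe sets. The brighter one was at 13.75, 13.83 and 13.87 in the knockout and at 13.61, 13.82 and 13.67 in the control mice. Control 2 fell among the knockout mice, so that the groups overlapped, while the other 2 control mice were below all knockout mice. Group means were 13.82 ± 0.058 for knockout and 13.70 ± 0.11 for control mice (SD, n = 3 each). The difference of 0.12 (standard error 0.068, 95% confidence interval -0.062 to 0.30) did not pass the test (limma, unadjusted p = 0.145, adjusted p = 1, exact permutation p = 0.2, two-sided). On the linear scale this interval runs from a ratio of 0.958 to one of 1.23. For this probe set, a fall by more than a few percent in RNA of whole glomeruli lies outside it. Podocytes were not measured apart from the other glomerular cells. The second probe set gave 6.92 ± 0.11 and 6.78 ± 0.19 (SD, n = 3), a difference of 0.14 (standard error 0.12). Its 95% confidence interval was wider, from -0.19 to 0.46 or ratios of 0.876 to 1.38, and includes a larger fall. Both probe sets had their lowest value in control 1.

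The size of the Ctsl difference varied with control 2. Without this mouse, the only control that overlapped the knockout mice, the differences of the 2 probe sets were 0.18 (standard error 0.046) and 0.24 (standard error 0.078). Their unadjusted p was then 0.0254 and 0.0453, where 5.73% of all probe sets had one under 0.05, and the adjusted p was 0.738 and 0.852 (limma). Podocyte markers had the same sign as Ctsl on 5 of the 6 arrays, and so did proximal tubule markers. The median deviation of 13 podocyte markers from the mean of the 6 arrays was -0.17, 0.10 and -0.15 in controls 1, 2 and 3 and 0.044 to 0.10 in the knockout mice. That of Ctsl was -0.15, 0.058 and -0.090 in the controls and -0.0035 to 0.11 in the knockout mice. The median deviation of proximal tubule markers that are not dim was -0.14, 1.06 and -0.77 in controls 1, 2 and 3. In the knockout mice it was -0.21 to 0.096. Of the podocyte markers 12 had a higher and 1 a lower mean in knockout glomeruli, with a median difference of 0.12 (0.20 without control 2). None was dim, their summed unlogged level ran from 124978 to 130126 in knockout and from 112857 to 135925 in control mice, and their part in the Ctsl values was not tested. In bulk glomeruli, more cells of a type and more RNA per cell cannot be told apart.

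The 5 genes with the profile most like that of Ctsl were Mrpl27, Tmem230, Sike1, Cant1 and Drg2. They were ranked among 10369 genes that are not dim by the root mean square distance over the 6 arrays after each gene's own mean was removed, which was 0.011 to 0.018 on the log2 scale.

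Cathepsin H was the member that separated the groups, as 13.7% of all probe sets that are not dim did. Ctsh, on chromosome 9 (90054267 to 90076095), encodes a cysteine protease with aminopeptidase activity, and both of its probe sets were higher in all 3 knockout mice than in all 3 control mice. The brighter one was at 11.34, 11.40 and 11.49 in knockout and at 11.20, 11.05 and 11.17 in control glomeruli. The difference was 0.27 (standard error 0.061, 95% confidence interval 0.10 to 0.43), or 1.20-fold, with an unadjusted p of 0.00984 and an adjusted p of 1 (limma). The second probe set was at 9.71, 9.58 and 9.95 in knockout and at 9.37, 9.37 and 9.34 in control glomeruli, a difference of 0.38 (standard error 0.11), or 1.30-fold (unadjusted p = 0.0197, adjusted p = 1, limma). The exact permutation test gave p = 0.1 for both, the smallest that this design allows. The second name ends in _x_at, a class of probe sets in which some probes also match other transcripts. With 1 array left out in turn, the difference of the brighter probe set stayed between 0.22 and 0.30, and its unadjusted p under 0.05. That of the second probe set was 0.28 to 0.46, and its p was 0.0568 to 0.0625 with any 1 control left out. Neither reached the fold of 1.5 in any of these fits.

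Cathepsins C and S differed more between mice of the control group than between the groups. Cathepsin C, also named dipeptidyl peptidase 1, activates serine proteases of leukocyte granules, and cathepsin S degrades the invariant chain of MHC class II in antigen-presenting cells. Ctsc was at 11.85, 11.34 and 11.96 in the knockout and at 11.70, 9.87 and 12.16 in the control mice. Control 2 was the lowest by far, and the other 5 mice lay within 0.813 of each other. Group means were 11.72 ± 0.33 for knockout and 11.24 ± 1.21 for control mice (SD, n = 3 each), a difference of 0.48 (standard error 0.70, unadjusted p = 0.53, adjusted p = 1, limma). Ctss was at 13.35, 12.93 and 13.44 in the knockout and at 13.19, 11.53 and 13.64 in the control mice. Again control 2 was the lowest, by 1.39 below the next mouse. The group means of Ctss were 13.24 ± 0.27 and 12.79 ± 1.11 (SD, n = 3), a difference of 0.45 (standard error 0.63). Without control 2, the difference turned to -0.21 (standard error 0.28) for Ctsc and to -0.18 (standard error 0.25) for Ctss. The second probe set of Ctsc, a dimmer one, had the largest difference of all member probe sets that are not dim, 0.69 (standard error 0.91), and turned to -0.17 as well.

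**Figure D2:**
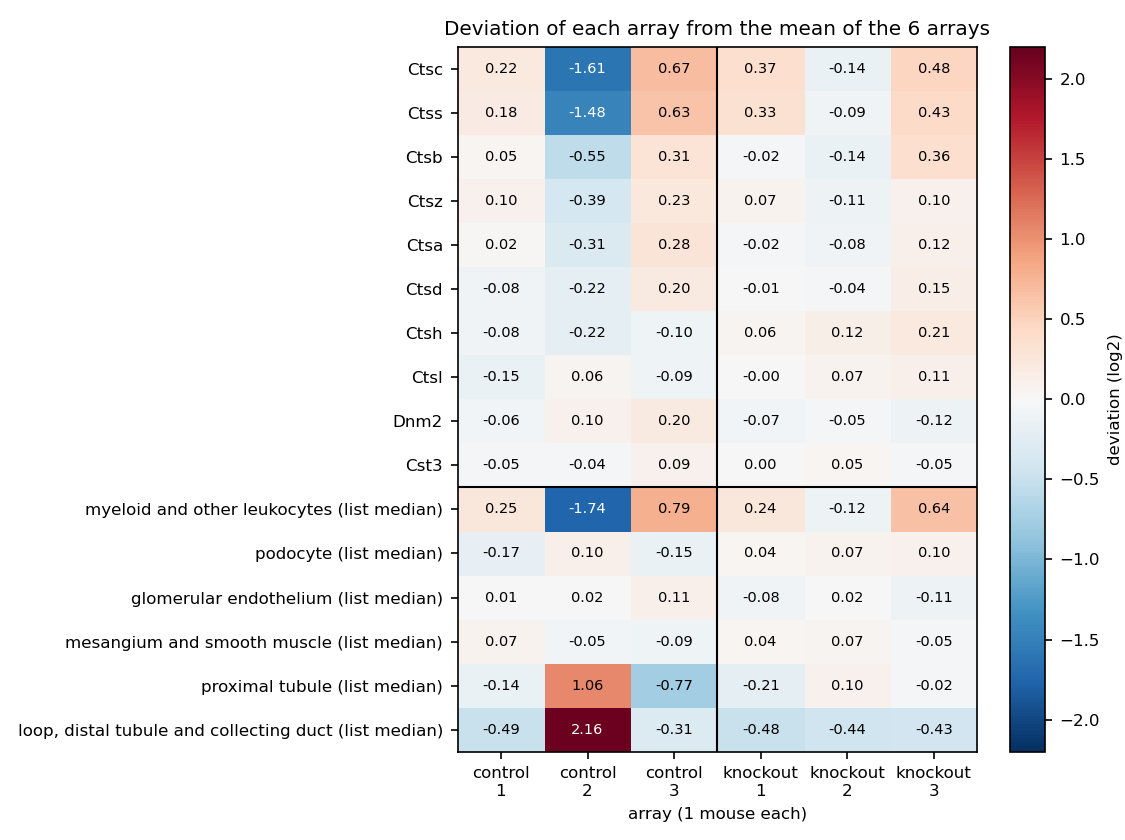
Deviation of each array (columns, 1 mouse each) from the mean of the 6 arrays on the log2 scale, for the 10 members above the line and for the median of 6 lists of cell type markers below it. Ctsc and Ctss stand at -1.61 and -1.48 in control 2, where the leukocyte list is at -1.74. Ctsl has the same sign as the podocyte list on 5 of the 6 arrays, and as often the same sign as the proximal tubule list.

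Markers of leukocytes moved with Ctsc and Ctss. Of 20 such markers, listed by function, none was dim, and 19 had a higher and 1 a lower mean in knockout than in control glomeruli. Their summed unlogged level was 16298 in control 2 and 41989 to 69452 in the other 5 mice. It ran from 41989 to 67790 over the knockout mice and from 16298 to 69452 over the control mice. Among the markers with the highest means, the invariant chain gene Cd74 was at 11.65 in control 2 against 12.80 to 13.39 elsewhere, the MHC class II gene H2-Aa at 11.39 against 12.55 to 13.04, and the lysozyme gene Lyz2 at 10.77 against 12.14 to 13.58. Without control 2, the median difference of the list was -0.21 in place of 0.47. Control 2 also had the highest levels of tubule markers, with a median deviation of 2.16 for the loop, distal tubule and collecting duct and 1.06 for the proximal tubule. The part of leukocytes and tubules in the cathepsin values was not tested. Glomerular markers were bright on all 6 arrays, among them Podxl of podocytes (15.17 to 15.31), Emcn of endothelium (14.40 to 14.53) and Itga8 of mesangium (13.85 to 14.03). Of 12 endothelial markers, none of them dim, 10 had a lower and 2 a higher mean in knockout glomeruli, with a median difference of -0.090 (-0.14 without control 2). Of their 21 probe sets, none of them dim, 7 had an unadjusted p under 0.05 (limma), against 3.63% of the array, dim probe sets included. When only probe sets that are not dim were fitted, 1581 of 19619 had one. The groups did not overlap for 8 of the 21, against 13.7% of all probe sets that are not dim. Kdr, Tek, Flt1 and Emcn were lower in all 3 knockout mice, by 0.22, 0.18, 0.18 and 0.079 on the log2 scale, each with an adjusted p of 1 (limma). In the list of mesangium and smooth muscle, 1 of 18 probe sets passed the criterion, against 0.18% of all probe sets on the array. It belongs to the smooth muscle gene Tagln, 1 of the 8 genes listed, with a difference of 0.68 (standard error 0.24, adjusted p = 1, limma). The median difference of the list was 0.027. The part of these cells in the values of the members was not tested either.
The genes with the profile most like that of Ctsc, the member with the widest range, were AB124611, Cd52, Tyrobp, Ms4a6b and Laptm5, at a root mean square distance of 0.088 to 0.097 over the 6 arrays among 10369 genes. Tyrobp, which encodes an adaptor of myeloid receptors, and Laptm5, which encodes a lysosomal membrane protein of leukocytes, are also on the list of leukocyte markers. Cd52 encodes a surface glycoprotein of leukocytes.

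Cathepsins B and Z, the other cysteine proteases, were lower in control 2 by smaller steps. Ctsb, which encodes an abundant protease with endopeptidase and exopeptidase activity, was at 13.16, 13.04 and 13.55 in the knockout and at 13.24, 12.63 and 13.49 in the control mice. The groups overlapped, with means of 13.25 ± 0.27 and 13.12 ± 0.44 (SD, n = 3). Ctsb has 4 probe sets that are not dim, and their differences ran from -0.019 to 0.16. Control 2 stood 0.79 below the mean of the other 5 mice on one of them and only 0.032 below it on another. The 3 probe sets of Ctsz, which encodes a carboxypeptidase, gave differences of 0.031 to 0.066 and group means of 13.39 ± 0.11 and 13.35 ± 0.33 for the brightest (SD, n = 3). Without control 2, all differences of Ctsb and Ctsz were negative, -0.20 to -0.037 and -0.14 to -0.13, and none had an adjusted p under 0.05.

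The aspartic and the serine protease differed little. Ctsd was at 10.83 ± 0.10 in knockout and 10.76 ± 0.21 in control glomeruli (SD, n = 3), a difference of 0.068 with a 95% confidence interval from -0.29 to 0.42. Ctsa, whose product also protects lysosomal galactosidase and neuraminidase from degradation, was at 11.79 ± 0.10 and 11.77 ± 0.30 (SD, n = 3), a difference of 0.013 with an interval from -0.45 to 0.48. For both genes control 3 was the highest and control 2 the lowest mouse, so that the control group spanned all knockout mice. The second probe set of Ctsa was dim and had the same value on all 6 arrays.

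Cystatin C had the narrowest range of the members. Cst3 was at 13.80, 13.84 and 13.75 in the knockout and at 13.75, 13.76 and 13.89 in the control mice. Both groups had a mean of 13.80, with an SD of 0.047 in knockout and 0.081 in control glomeruli (n = 3). The difference was -0.0012 (standard error 0.052), and its 95% confidence interval from -0.14 to 0.14 corresponds to ratios of 0.906 to 1.10. Median centring of the arrays turned the sign of this difference. Control 2 lay within the range of the other mice here, as it did for the brighter probe set of Ctsl.

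The probe sets of dynamin 2 disagreed in direction. The brightest of the 7 probe sets of Dnm2 was at 9.25, 9.27 and 9.19 in the knockout and at 9.25, 9.41 and 9.51 in the control mice. Control 1 was level with the knockout mice, so that the groups overlapped, and the difference of -0.15 (standard error 0.076) did not pass the test (limma, unadjusted p = 0.106, adjusted p = 1). Without control 1 it was -0.23 (standard error 0.043, unadjusted p = 0.011, adjusted p = 1, limma), where 1458 of 45101 probe sets had an unadjusted p under 0.05. With any other array left out it was -0.17 to -0.096, with an unadjusted p of 0.16 to 0.24 (limma). The other 5 above the dim level gave differences of -0.010 to 0.14, of which 4 were positive, and the mean over all 6 differed by 0.022. The next brightest, a probe set of the _x_at class, was at 9.21, 9.20 and 9.20 in the knockout and at 9.05, 9.20 and 9.23 in the control mice. Which Dnm2 transcripts each probe set detects was not analysed here.

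**Figure D3:**
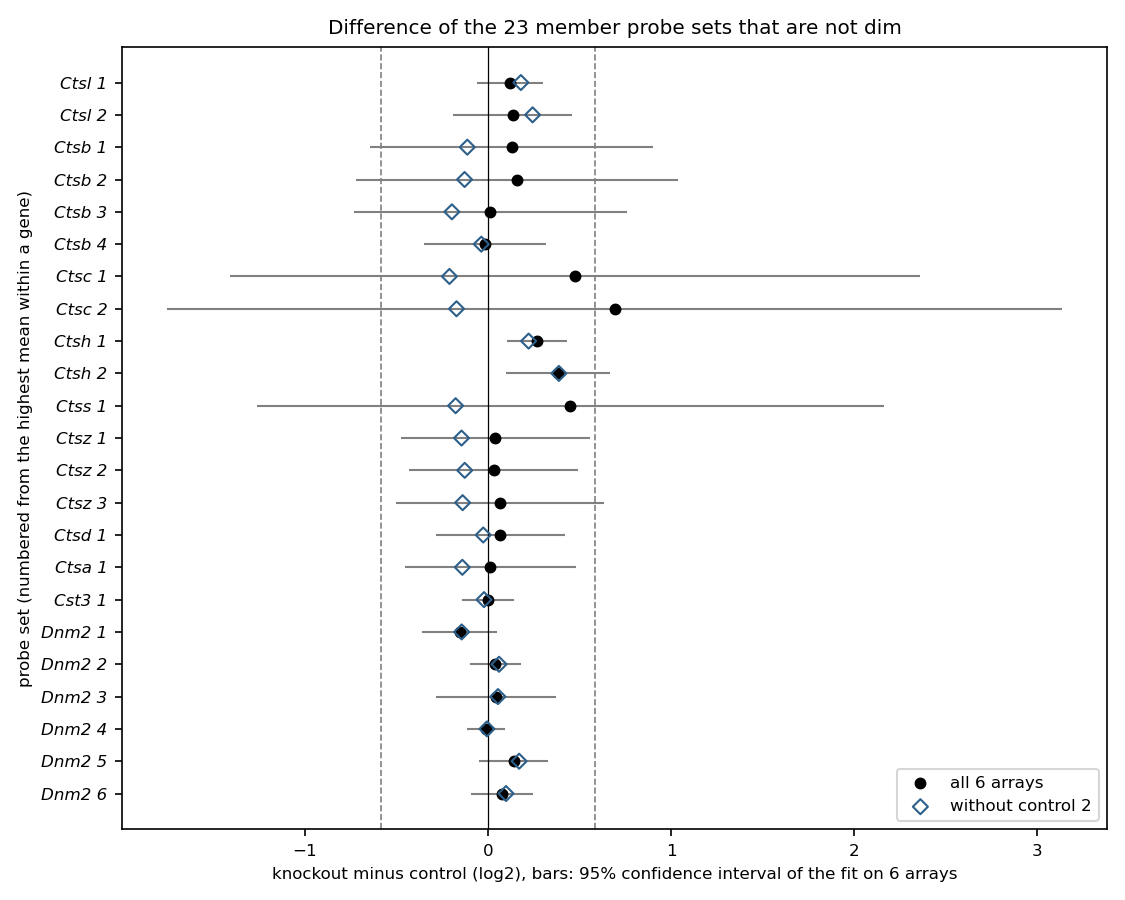
Difference between knockout and control (log2, horizontal axis) for the 23 member probe sets that are not dim, numbered from the brightest within each gene. Black points are fits on all 6 arrays with 95% confidence intervals, blue diamonds leave out control 2, and dashed lines mark a fold of 1.5. The 2 Ctsh intervals lie above 0, whereas Ctsc and Ctss have wide intervals and cross 0 without control 2.

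The members varied more between control mice than between knockout mice. Taking 1 probe set per gene, the median SD was 0.25 in the control and 0.10 in the knockout group, while over all probe sets that are not dim it was 0.12 and 0.091. Control 2 was the lowest array for 7 of the 10 members (Ctsb, Ctsc, Ctsh, Ctss, Ctsz, Ctsd and Ctsa), and for 19.8% of all probe sets that are not dim. The median range over the 6 arrays was 0.51 for the members and 0.35 for all probe sets that are not dim. Without control 2, these medians were 0.32 and 0.30. The median difference of the 10 genes was 0.094, beside 0.015 for all probe sets that are not dim. The sign turned without control 2 for Ctsb, Ctsc, Ctss, Ctsz, Ctsd and Ctsa. For Ctsb (-0.019) and Ctsa (-0.042) it also turned without knockout 3. Without control 2, 0 of the 27 probe sets passed the criterion, against 0.31% of the array.

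The other genes of the lysosome differed little between the groups. Lists of further proteases, inhibitors, hydrolases, membrane proteins, proton pump subunits and regulators held 84 genes with 179 probe sets, and 0 of these passed the criterion with limma. A total of 11 had an unadjusted p under 0.05 with limma, where 3.63% of the array did, and 18 with SAM, where 5.18% did. The count with limma was 5 without knockout 2, 6 without knockout 3 and 21 without control 2. Over the 45101 probe sets of the array it was 1244, 1273 and 2585 in the same fits. When only probe sets that are not dim were fitted, the lysosomal count was 8, against 1581 of 19619. Of the 78 genes that are not dim, 49 had a higher and 29 a lower mean in knockout glomeruli, with a median difference of 0.037 (0.016 without control 2). Of the 9 other lysosomal proteases that are not dim, 4 were above and 5 below 0. The largest differences were -0.35 (standard error 0.21) for the carboxypeptidase gene Scpep1 and 0.30 (standard error 0.49) for Lgmn, which encodes the protease legumain. Lgmn was at 9.13 in control 2 against 10.06 to 10.75 in the other mice, and its difference turned to -0.15 without control 2. That of Scpep1 was then -0.46. A second probe set of Scpep1 was lower in all knockout mice, by 0.37 (standard error 0.13). Among inhibitors, Cstb, which encodes the intracellular cystatin B, was at 0.042 (standard error 0.15), and the serpin genes Serpinb1a and Serpinb6a were at 0.14 and 0.062. With control 2 left out, Cstb was at -0.11, Serpinb1a at 0.27 and Serpinb6a at 0.058. The 27 hydrolase genes had a median of 0.038, with Gla, which encodes alpha-galactosidase A, at 0.24 (standard error 0.12) and Pla2g15, a phospholipase gene, at 0.19 (standard error 0.15). Gla stayed at 0.24 and Pla2g15 was at 0.064 without control 2. The 20 genes of membrane, activator and transport proteins had 10 values on each side of 0, with the sialic acid transporter gene Slc17a5 at -0.15 (standard error 0.071) and Tmem192 at 0.14 (standard error 0.12). Slc17a5 stayed at -0.15 and Tmem192 was at 0.065 without control 2.

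Subunits of the proton pump that acidifies the lysosome had more probe sets at a low p than the other lists of lysosomal genes. Of 36 probe sets, 28 of them not dim, 6 had an unadjusted p under 0.05 with limma, all higher in knockout glomeruli. The share over the array was 3.63%, dim probe sets included. It was 1581 of 19619 when only probe sets that are not dim were fitted. The 6 belong to Atp6v1c1 (2 probe sets), Atp6v0e, Atp6ap1, Atp6v1e1 and Atp6v1f. Atp6v1c1 was at 11.77, 11.65 and 11.86 in the knockout and at 11.43, 11.34 and 11.54 in the control mice, a difference of 0.32 (standard error 0.081, adjusted p = 1, limma). Atp6v0e was at 11.50, 11.60 and 11.56 in knockout and at 11.32, 11.45 and 11.38 in control glomeruli, a difference of 0.17 (standard error 0.047). Atp6v1b2 had a difference of 0.19 (standard error 0.10) without passing the unadjusted threshold. The groups did not overlap for 9 of the 28 probe sets of the list that are not dim, against 13.7% of all such probe sets. Of its 14 genes, 11 were above 0, and the median of 0.12 was 0.11 without control 2. None had an adjusted p under 0.05. Tfeb, the transcription factor that activates many lysosomal genes, was lower in all 3 knockout mice. It stood at 6.60, 6.81 and 6.71 in knockout and at 7.09, 6.85 and 7.25 in control glomeruli, a difference of -0.36 (standard error 0.13, unadjusted p = 0.0436, adjusted p = 1, limma). Zkscan3, described as a repressor of lysosomal genes, was at 0.18 (standard error 0.19), and at 0.36 without control 2.

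**Figure D4:**
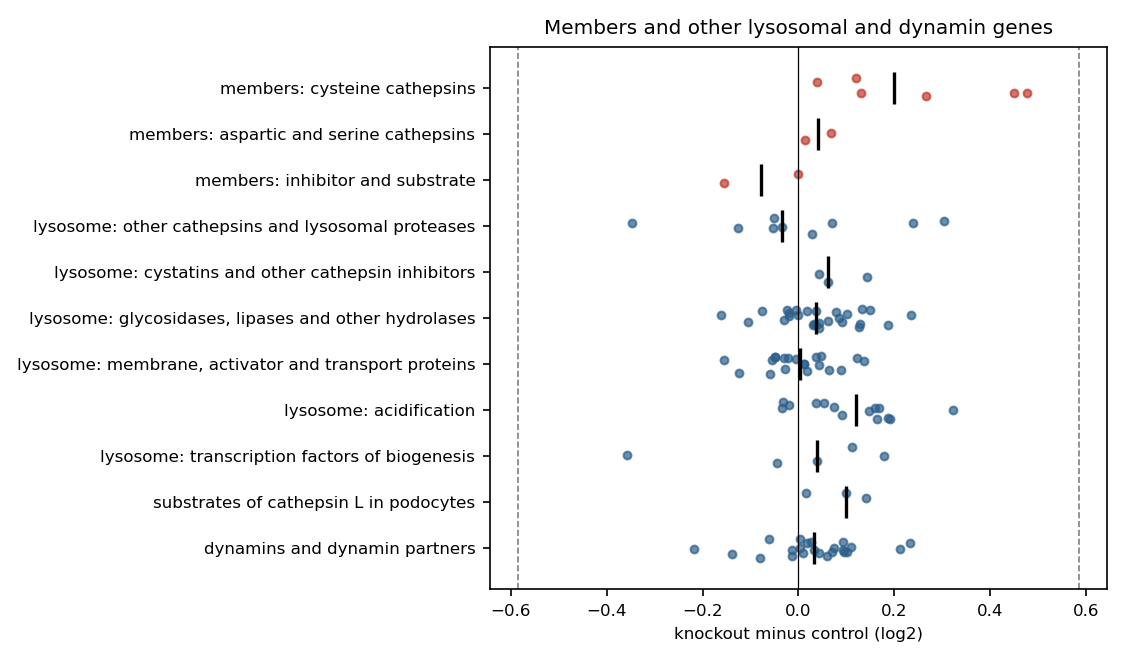
Difference between knockout and control (log2, horizontal axis) of genes that are not dim, 1 point per gene, in the 3 groups of members (red) and in the lists of other lysosomal and dynamin genes (blue). Black bars are list medians and dashed lines mark a fold of 1.5, and no point lies beyond them.

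The substrates of cathepsin L and the partners of dynamin showed small differences. Synpo, which encodes synaptopodin, was at 13.97 ± 0.11 in knockout and 13.87 ± 0.10 in control glomeruli (SD, n = 3). Itga3, the integrin alpha 3 gene, was higher in all knockout mice by 0.14 (standard error 0.055, unadjusted p = 0.059, limma). Of 23 dynamin genes and partner genes that are not dim, 17 were above and 6 below 0, with a median of 0.033. Of the 78 probe sets of the list, 50 of them not dim, 5 had an unadjusted p under 0.05 (limma). The share over the array was 3.63%, dim probe sets included. The largest of these differences was that of Itsn1, which encodes the endocytic scaffold intersectin 1, at 8.55, 8.52 and 8.48 in the knockout and 8.33, 8.25 and 8.27 in the control mice. Its difference of 0.23 (standard error 0.031) had an adjusted p of 0.873 (limma). Cltc, the clathrin heavy chain gene, was lower in all knockout mice by 0.22 on the log2 scale (standard error 0.090, adjusted p = 1, limma).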

How the data were processed

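Glomeruli of each mouse were hybridized to 1 Affymetrix mouse genome expression array. The authors processed the intensities with GCRMA (version 2.30.0: background correction, quantile normalization, probe summary), and the deposited values are log2 intensities of 45101 probe sets, and the annotation gives 1 gene for 34958 of these. Arrays were grouped by genotype in their labels. Knockout and control were compared with limma (version 3.58.1, R 4.3.3; lmFit, eBayes, two-sided) on all probe sets without filter or covariate, with Benjamini-Hochberg adjustment over all of them. SAM, the test of the study's methods, was written out in R with p-values pooled over 20 permutations. The probe set with the highest mean stood for a gene in lists. Symbols were updated to GRCm38.p6 through gene identifiers. No sample column was left unused (0). The procedures were tested on simulated data.

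The members and lists were chosen by function, with earlier results of these data known. Lists held 84 lysosomal genes, 3 cathepsin L substrates, 24 dynamin genes and partners, and markers of 6 cell types, and 11 listed genes without a single-gene probe set were not analysed here. Named were all members, per list of lysosomal or dynamin genes those past the criterion or else the 2 largest differences, the brightest cell type markers, and the 5 nearest profiles of Ctsl and of the member with the widest range. Cstb, Kdr, Tek, Flt1, Tagln, the second probe set of Scpep1 and the proton pump probe sets with an unadjusted p under 0.05 were named after their values were seen. Precision is limited by the number of arrays. Alternatives were SAM, a trended robust prior, filters, median centring, repeated quantile normalization, an offset of 16, a replicate block, a fold over 2, gene means over probe sets and omission of each array.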

Additional observations from a re-analysis of the deposited data

How the results depend on the processing

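The counts of member probe sets past the criterion, of member probe sets with an adjusted p under 0.05 and of other lysosomal probe sets past the criterion were 0 under every alternative run, those with 1 array left out included (0 to 0). The smallest adjusted p of a member was 0.0958, that of Ctsh with the arrays centred on their medians. That setting shifts the many constant probe sets together and raised the number at an unadjusted p under 0.05 from 1636 to 21011, and that of the members from 2 to 4 and of the other lysosomal probe sets from 11 to 41. Taken by its brightest probe set or the mean over its probe sets, Ctsl differed by 0.076 to 0.18 under all alternatives. Ctsh, taken in the same way, differed by 0.22 to 0.32. The second Ctsl probe set was at 0.24 without control 2, and the second Ctsh probe set at 0.46 without knockout 2. With 1 array left out in turn, the differences of the brightest probe sets ran from -0.11 to 0.32 for Ctsb, -0.21 to 0.93 for Ctsc, -0.18 to 0.88 for Ctss and -0.14 to 0.16 for Ctsz. They ran from -0.026 to 0.18 for Ctsd, -0.14 to 0.15 for Ctsa, -0.027 to 0.045 for Cst3 and -0.23 to -0.096 for Dnm2. The sign of Cst3 also turned with median centring (0.018) and repeated quantile normalization (0.00076), and that of Dnm2 when its probe sets were averaged (0.022). The cause was not tested. A replicate block left the member counts at 0 and moved the probe sets past the criterion over the whole array from 81 to 64. It moved the lysosomal probe sets at an unadjusted p under 0.05 from 11 to 17, and those of the whole array from 1636 to 1947 (limma). The p of the second Ctsh probe set was then 0.0607 (limma). Deviations of same-numbered arrays correlated at 0.0949, 0.352 and 0.248. Each array correlated best with its own number, but control 1 nearly as well with knockout 3 (0.0943), and the labels give no pairing.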
